A study of Mus musculus with 6 samples.

Results

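FGF and ERK response genes were followed in mouse embryonic stem cells (mESCs) that lack huntingtin. The set has 10 genes, namely the ligand Fgf4, the receptors Fgfr1 and Fgfr2, the transcription factors Etv4, Etv5 and Egr1, and the inhibitors Spry2, Spry4, Spred1 and Dusp6. They were taken by symbol from the 23412 genes of the deposited table, and all 10 were among the 14276 genes with enough signal to be tested. R1 mESCs (strain 129Sv) are the wild type line, and HN mESCs carry the genotype Htt-/-, with the promoter and exon 1 of both Htt copies deleted. Each line gave 3 libraries of undifferentiated cells, made from batches collected on 2/17/14 (replicate 1), 2/20/14 (replicate 2) and 3/2/14 (replicate 3), and both lines were collected on each date. Each genotype was one line, so the effect of the deletion and any other difference between the lines cannot be told apart. By the study's methods, both lines grew without feeder cells in serum medium with LIF and with inhibitors of the FGF and VEGF receptors (SU5402), of MEK (PD184352) and of GSK3 (CHIR99021), so every level below was measured with these inhibitors in the medium.

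FGF4 is made by the pluripotent cells of the early embryo and acts on FGF receptors of the same and neighbouring cells, from where the signal passes through RAS, RAF and MEK to the ERK kinases. In mESCs this signal prepares cells to leave the pluripotent state, and blocking it holds them in the ground state. ERK activity switches on a small set of genes, among them the ETS factors Etv4 and Etv5 and the immediate-early gene Egr1, and also the feedback inhibitors of the Sprouty, Spred and dual-specificity phosphatase families, which is why these genes are widely read as a measure of the pathway.

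The libraries held 1640391 to 3866717 reads on genes, with replicate 2 the deepest in both lines, and values below are normalized read counts. In the normalized table, 3 reads in a library are worth between 2.13 and 4.04. Htt itself was at 230.0, 257 and 199 in R1 mESCs (replicates 1, 2 and 3) and at 18.3, 58.1 and 54.2 in HN mESCs (log2 difference -2.52, limma adjusted p = 0.0141), in the direction of the labels. All 8 pluripotency markers were expressed in both lines. Of 26 tested markers of other cell types (primitive endoderm, mesoderm, neural, trophoblast and fibroblast feeder), 0 passed the unblocked limma test between the lines (0.245% of all tested genes did). The blocked test called 6, with 3 higher and 3 lower in HN mESCs (9.48% of all tested genes were called). Of the 26, 20 had their highest value in replicate 3 of both lines (25.6% of all tested genes did). The summed level of all 33 such markers ran from 1209 to 1655 in R1 mESCs and from 1539 to 1669 in HN mESCs. Its largest terms were Sparc (mean 469 in R1 and 395 in HN mESCs) and Lama1 (263 and 546), so it says little about the other markers. As bulk RNA was measured, fewer cells with a transcript and less of it per cell cannot be told apart.

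The 250 bases before the transcript start are given for the ligand, a transcription factor and 2 inhibitors, because these genes are known parts or targets of one pathway. They come from RefSeq on build GRCm38.p6, and such sequences were used for 6 of the 10 genes. They are written 5' to 3' on the gene's own strand and in lower case, with capitals where a searched motif was found. Fgf4 lies on the plus strand at chr7:144861136-144861385, Etv5 has starts on the minus strand behind chr16:22439571-22439820 (start 1) and chr16:22438369-22438618 (start 2), Spry2 is on the minus strand at chr14:105896820-105897069 and Dusp6 on the plus strand at chr10:99262981-99263230.
Fgf4: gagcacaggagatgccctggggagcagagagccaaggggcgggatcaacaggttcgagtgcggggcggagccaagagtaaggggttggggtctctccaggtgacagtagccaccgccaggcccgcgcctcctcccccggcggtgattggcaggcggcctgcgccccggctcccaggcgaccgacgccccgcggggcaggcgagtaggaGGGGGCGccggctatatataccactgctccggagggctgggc
Etv5 start 2: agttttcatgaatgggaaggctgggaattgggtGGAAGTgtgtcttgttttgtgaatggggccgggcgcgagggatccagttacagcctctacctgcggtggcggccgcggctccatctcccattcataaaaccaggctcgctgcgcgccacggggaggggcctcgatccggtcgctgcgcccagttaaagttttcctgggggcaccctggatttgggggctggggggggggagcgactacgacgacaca
Spry2: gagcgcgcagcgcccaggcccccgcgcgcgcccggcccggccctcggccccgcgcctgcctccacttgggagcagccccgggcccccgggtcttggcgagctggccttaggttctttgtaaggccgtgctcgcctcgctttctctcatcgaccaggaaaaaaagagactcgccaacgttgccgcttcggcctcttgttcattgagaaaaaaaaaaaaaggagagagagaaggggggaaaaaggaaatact
Dusp6: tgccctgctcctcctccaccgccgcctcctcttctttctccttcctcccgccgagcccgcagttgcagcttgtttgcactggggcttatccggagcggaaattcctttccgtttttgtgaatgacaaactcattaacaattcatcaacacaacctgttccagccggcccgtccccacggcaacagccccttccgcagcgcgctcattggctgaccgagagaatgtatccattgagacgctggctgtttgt

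Both strands were searched for the ETS motif GGAAGT, the EGR motif GGGGGCG, the CREB site core TGACGT and the CArG box of serum response factor, none of which overlap in the matches found. GGAAGT was found once, from base -217 relative to the second start of Etv5. It stands in 20.0% of 27025 mouse promoters of this length, taken at the first listed start of each gene. For the genes here every listed start was searched, so this share is not for a like set. GGGGGCG was found from base -42 of Fgf4 and, on the opposite strand, from base -35 of Spred1, against 14.8% of the same 27025 promoters. The promoters of Spry2, Dusp6 and Fgfr2 and the first of Etv5 held none of these letters. TGACGT (6.56% of promoters) and the CArG box (1.40%) were in none of the promoters searched, those of Fgf4, Fgfr2, Spry2, Dusp6, Etv5 and Spred1. Promoters of Egr1, Spry4, Fgfr1 and Etv4 were not among them, so their motifs are unknown here. These matches are a description of the windows only.

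**Figure D1:**
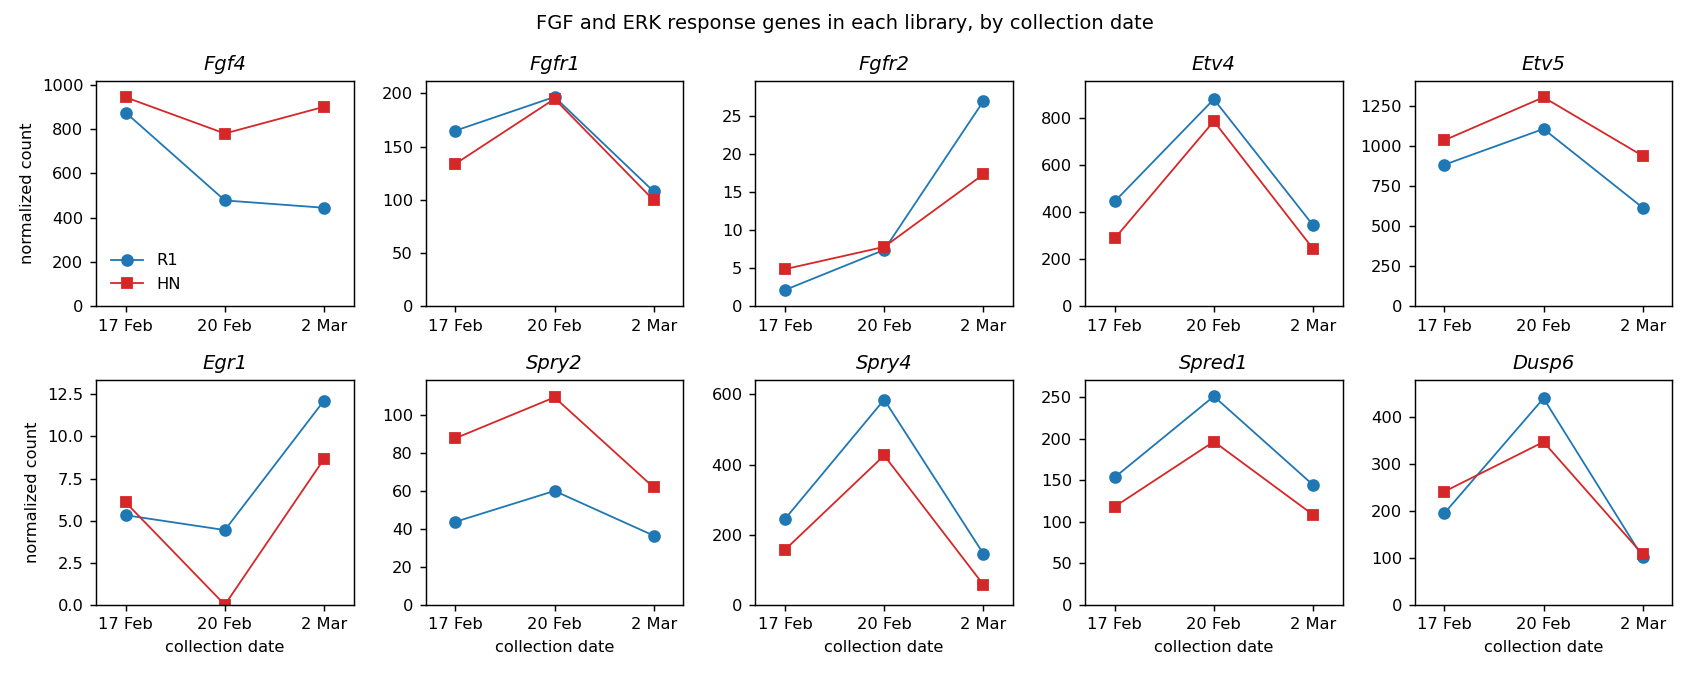
Normalized read counts of the 10 FGF and ERK response genes in each library by collection date (linear axes from 0, one panel per gene), with circles for R1 and squares for HN mESCs and lines joining the libraries of a cell line. Spry2 is the one gene whose HN values, 61.7 to 109, all lie above its R1 values, 36.4 to 59.9, and in most panels both lines are highest on the second date.

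Without the dates in the model, 0 of the 10 genes passed the limma test between the lines at an adjusted p under 0.05 (0.245% of all tested genes did). Unadjusted p was under 0.05 for 2 of them (5.91% of all tested genes), Fgf4 (0.0313) and Spry2 (0.0115), and 0 passed with edgeR or DESeq2 run the same way. For these edgeR and DESeq2 fits the shares of all tested genes are not given here. With the collection date as a block, 5 of the 10 passed limma, against 9.48% of all tested genes. Fgf4, Spry2 and Etv5 were higher in HN mESCs (3 genes, where 5.46% of all tested genes were), and Spry4 and Etv4 were lower (2 genes, where 4.02% were). On all 3 dates, 3 genes were higher in HN mESCs (20.3% of all tested genes were) and 4 lower, Fgfr1, Etv4, Spry4 and Spred1 (21.1%). None of the 10 both passed the blocked test and differed by more than 1 on the log2 scale (0 genes, against 1.95% of all tested genes). With the same block, edgeR called 6 genes (11.2% of all tested genes), adding Spred1, and DESeq2 called 2, Spry4 and Etv5 (3.59%). Leaving out each date pair in turn left 3 of the 5 past the blocked limma test each time, namely Fgf4, Spry2 and Spry4. For these refits the shares of all tested genes are not given here. Over all 10 genes the median log2 difference was -0.06, beside -0.01 over all tested genes, with 3 genes past the blocked test on one side and 2 on the other.

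**Figure D2:**
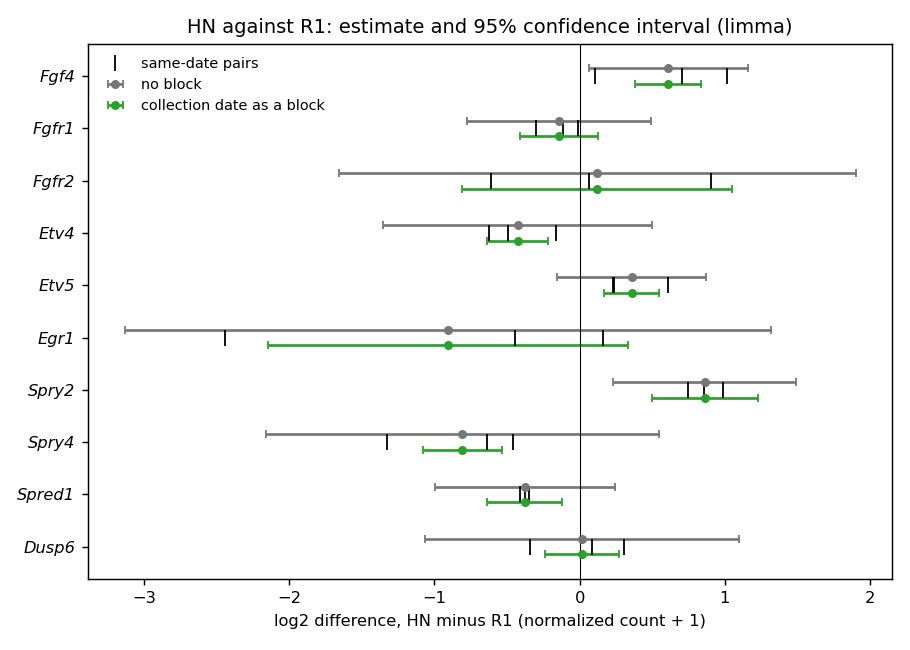
Log2 difference (HN minus R1) of each gene with its 95% interval without and with the date as a block, and the 3 same-date pair differences as vertical ticks. The unblocked intervals exclude 0 for Fgf4 and Spry2 before adjustment, and the blocked intervals exclude 0 for Fgf4, Etv5, Spry2, Etv4, Spry4 and Spred1, the last not past the adjusted test.

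Fgf4, the ligand, lies on chromosome 7 of GRCm38 (144847367 to 144865243, plus strand). In R1 mESCs it stood at 875, 478 and 445 in replicates 1, 2 and 3, and in HN mESCs at 944, 780.4 and 901. The HN values were close to each other and the R1 values were not, with the first R1 library inside the HN range. R1 mESCs averaged 599 ± 239 and HN mESCs 875 ± 84.9 (SD, n = 3), a 1.46-fold difference. The log2 difference was 0.61 ± 0.25 (SE, limma adjusted p = 0.755), and with the date block 0.61 ± 0.11 (adjusted p = 2.63e-04, 95% interval 0.38 to 0.84). It was higher in HN mESCs in 3 of 3 pairs, by 0.11, 0.71 and 1.02 on the log2 scale. edgeR with the block gave an adjusted p of 1.14e-05 and DESeq2 did not call it.

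Fgfr1 encodes the FGF receptor that is most prominent in mESCs (chromosome 8, 25513654 to 25575718, plus strand). It stood at 165, 197 and 108 in R1 mESCs and at 134, 195 and 99.6 in HN mESCs. The lines overlapped and each pair was slightly lower in HN mESCs. The log2 difference was -0.14 ± 0.29 (SE, limma adjusted p = 1.0), with a 95% interval from -0.78 to 0.49, and with the block from -0.41 to 0.13. An antisense gene, Gm16159, covers 164 bases (1.66%) of its exons, and reads of the pair cannot be separated in a kit that does not mark strand.

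Fgfr2, the receptor linked to primitive endoderm and trophoblast, lies on the minus strand of chromosome 7 (130162451 to 133123350). It was scarce, at 2.13, 7.40 and 27.0 in R1 and at 4.87, 7.80 and 17.3 in HN mESCs, which rest on 2, 10 and 20 reads and on 4, 11 and 16 reads. The last date was the highest in both lines and the lines overlapped. The log2 difference of 0.12 ± 0.82 (SE) left a 95% interval from -1.66 to 1.90, or from -0.81 to 1.051 with the block, and a difference within these limits was not detectable at this depth. Exons of Ctbp2 overlap 314 bases (3.04%) of the exons of Fgfr2.

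Etv4 and Etv5 are closely related ETS factors of the PEA3 group. Etv4 (chromosome 11, 101769742 to 101785371, minus strand) stood at 446, 882 and 345 in R1 and at 288, 788 and 245 in HN mESCs. Each HN value was below the R1 value of its date, but the values of the lines overlapped because replicate 2 was high in both. Its log2 difference was -0.43 ± 0.42 (SE, limma adjusted p = 1.0), and with the block -0.43 ± 0.10 (adjusted p = 0.0058). The pairs were lower by 0.63, 0.16 and 0.49 in HN mESCs. The call was lost without replicate 1 (adjusted p = 0.0564, log2 difference -0.33).

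Etv5 (chromosome 16, 22381309 to 22439719, minus strand) stood at 883, 1106 and 615 in R1 and at 1035, 1304 and 938 in HN mESCs. Here each HN value was above the R1 value of its date, so the relatives differed in opposite directions. The log2 difference was 0.36 ± 0.23 (SE, limma adjusted p = 1.0), and with the block 0.36 ± 0.09 (adjusted p = 0.0103). The pairs were higher by 0.23, 0.24 and 0.61. The blocked call was lost without replicate 2 (adjusted p = 0.0985) and without replicate 3 (0.0835), where the log2 difference was 0.42 and 0.23.

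Egr1, a zinc finger factor that is among the first genes to answer ERK activity, lies on chromosome 18 (34859823 to 34864984, plus strand). It was near the detection limit, at 5.32, 4.44 and 12.1 in R1 and at 6.08, 0 and 8.66 in HN mESCs, from 5, 6 and 9 reads and from 5, 0 and 8 reads. The library without a read was the deepest of the 6. The log2 difference of -0.91 ± 1.02 (SE) rested on that library, and was 0.11 without it. With the block its interval ran from -2.15 to 0.34.

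Sprouty proteins curb receptor signalling towards RAS. Spry2 (chromosome 14, 105891947 to 105896819, minus strand) stood at 43.6, 59.9 and 36.4 in R1 and at 87.6, 109 and 61.7 in HN mESCs. The lowest HN library was above the highest R1 library, which held for 1 of the 10 genes, while the values of the lines did not overlap in 10.8% of all tested genes (5.23% with HN above). The means were 46.7 ± 12.05 and 86.2 ± 23.7 (SD, n = 3). Its log2 difference was 0.86 ± 0.29 (SE, limma adjusted p = 0.572), and with the block 0.86 ± 0.18 (adjusted p = 0.00113). It was higher in HN mESCs by 0.99, 0.85 and 0.75 in the 3 pairs.

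Spry4 (chromosome 18, 38586247 to 38601415, minus strand) went the other way. It stood at 245, 585 and 146 in R1 and at 157, 426 and 57.4 in HN mESCs. Replicate 2 was the highest and replicate 3 the lowest in both lines, and the second HN value was above 2 of the R1 values. The log2 difference was -0.81 ± 0.62 (SE, limma adjusted p = 1.0), and with the block -0.81 ± 0.13 (adjusted p = 5.86e-05, 95% interval -1.08 to -0.54). The pairs were lower by 0.64, 0.46 and 1.33 in HN mESCs, and the blocked log2 difference was -0.55 without replicate 3.

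Within a library, the ratio of Spry2 to Spry4 (normalized counts, not per length) was 0.178, 0.102 and 0.25 in R1 mESCs and 0.558, 0.256 and 1.08 in HN mESCs. The ratio was higher in each HN library than in any R1 library, 3.13-, 2.50- and 4.30-fold by pair, though the highest R1 and the lowest HN ratio were nearly equal. For Etv5 over Etv4 the ratios were 1.98, 1.25 and 1.78 in R1 and 3.59, 1.65 and 3.83 in HN mESCs, higher within each date (1.81-, 1.32- and 2.15-fold) with overlapping ranges. A ratio of Fgfr1 to the scarce Fgfr2 was also computed and changed direction between dates (0.355-, 0.940- and 1.44-fold by pair). The ratios of Spry2 to Spry4 and of Etv5 to Etv4 were chosen after the values were seen. All are given as a description without a test.

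Spred1, a Sprouty-related inhibitor of RAF activation, lies on chromosome 2 (117121374 to 117182279, plus strand). It stood at 153, 251 and 144 in R1 and at 118, 196 and 108 in HN mESCs, overlapping between the lines and lower in HN mESCs on each date by nearly the same amount (0.37, 0.35 and 0.41 on the log2 scale). The log2 difference of -0.38 ± 0.13 (SE with the block) missed the limma threshold (adjusted p = 0.0556) and passed that of edgeR (0.0426).

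Dusp6 encodes the cytoplasmic phosphatase that removes the activating phosphates from ERK, and its transcript is a common readout of the pathway (chromosome 10, 99263231 to 99267489, plus strand). It stood at 195, 439 and 101 in R1 and at 241, 347 and 107 in HN mESCs. The lines were interleaved, and the sign of the difference changed between the dates (0.30, -0.34 and 0.08). The log2 difference was 0.02 with a 95% interval from -1.06 to 1.10, or from -0.24 to 0.27 with the block.

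All 10 genes differed with the collection date in limma's F test at an adjusted p under 0.05, as did 46.0% of all tested genes. Without the variance trend 0 of the 10 passed, and the share of all tested genes in that fit is not given here. The range of the 3 date means, averaged over both lines, had a median of 1.21 on the log2 scale over these genes, beside 0.61 over all tested genes. This range was larger than the line difference in 8 of the 10 genes (85.0% of all tested genes).

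Spry4 had the widest range at 2.43 (limma adjusted p of the date 7.97e-12), followed by the scarce Fgfr2 at 2.40 (0.00309) and Egr1 at 2.27 (0.0356), and then by Dusp6 at 1.90 (3.53e-10) and Etv4 at 1.52 (2.3e-10). From replicate 3 to replicate 2, Spry4 differed 4.02-fold in R1 and 7.42-fold in HN mESCs, Dusp6 4.35- and 3.23-fold, and Etv4 2.56- and 3.22-fold. Replicate 2 was the highest and replicate 3 the lowest in both lines for 7 of the 10 genes, an order noticed after the values were seen and held by 14.9% of all tested genes. The exceptions were Fgf4 and the scarce genes Fgfr2 and Egr1, the last 2 being highest in replicate 3 of both lines (25.6% of all tested genes were). Replicate 2 is also the deepest library of both lines, and markers of other cell types were mostly highest in replicate 3. The part of depth and of such cells in the date order was not tested.

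**Figure D3:**
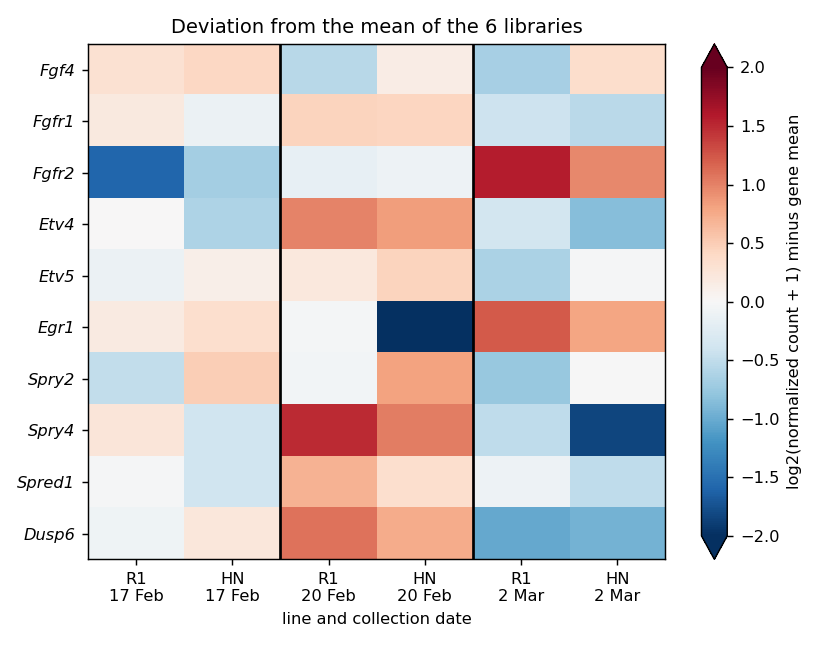
Log2 normalized counts of the 10 genes in each library, centred on the mean of the gene over the 6 libraries (1 added before the log), with colours limited to the range from -2 to 2. Spry4, Dusp6 and Etv4 are high in replicate 2 and low in replicate 3 of both lines, while Fgfr2 is highest in replicate 3.

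Per kilobase of annotated exon, Etv5 (mean over the 6 libraries 239 normalized counts per kb) and Fgf4 (231) were the most abundant of the 10, followed by Etv4 (161), Dusp6 (76.1), Spry4 (56.6), Spry2 (31.8), Spred1 (23.9) and Fgfr1 (15.2). Egr1 (1.36) and Fgfr2 (1.07) were far lower. Neighbours in this order overlapped in their ranges over the libraries, other than Fgfr1 and Egr1.

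**Figure D4:**
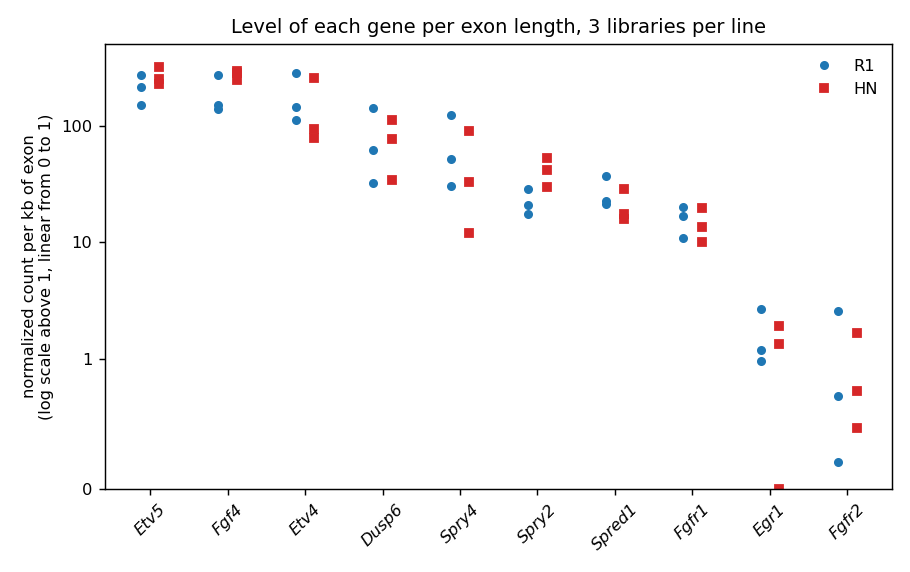
Normalized counts per kb of exon for each gene in each library (log axis above 1 and linear below it, circles R1 and squares HN mESCs), ordered by the mean over the 6 libraries. The step from Fgfr1 (15.2) to Egr1 (1.36) is the one place where neighbouring genes do not overlap.

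Other genes of the pathway were taken as lists of ligands, receptors and co-receptors, cascade kinases and adaptors, negative regulators and targets, of which 79 of 80 genes were in the table and 68 were tested. Without the block 0 passed limma (0.245% of all tested genes did), and 4 had an unadjusted p under 0.05 (5.91% of all tested genes). Run the same way, 0 passed edgeR and 2, Rps6ka1 and Epha4, passed DESeq2. The shares of all tested genes in these fits of edgeR and DESeq2 are not given here. With the block 6 passed limma, 5 higher and 1 lower in HN mESCs, beside the 9.48% of all tested genes. Among 7 tested ligands Fgf17 was higher, at 24.5, 28.9 and 20.2 in R1 and at 28.0, 64.5 and 63.9 in HN mESCs (log2 difference 0.98, blocked limma adjusted p = 0.00921). Among 7 tested receptors and co-receptors Il17rd, a membrane inhibitor of FGF signalling also named Sef, was higher at 203, 211 and 152 against 122, 161 and 68.7 (0.75, 3.60e-04). Kdr, the VEGF receptor, was low and did not pass (log2 difference 1.11, 0.0857), nor did Fgf8 (-0.74), a ligand of the later embryo.

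Of 25 tested cascade genes, Rps6ka1, the ERK-activated kinase RSK1, was higher in HN mESCs at 428, 599 and 340.1 against 269, 277 and 159 in R1, with no overlap (0.96, blocked limma adjusted p = 1.13e-07). The adaptor Gab2 (0.67) and, among the targets, the trophoblast factor Cdx2 (1.11) were low and did not pass. Of 13 tested negative regulators, Dusp1 passed with the block (0.43, adjusted p = 0.0321), while Dusp9 (-0.12), Dusp4 (0.62) and Dusp5 (-0.56) did not. Of 16 tested targets, Epha2 was higher (0.64, adjusted p = 1.98e-05) and Epha4 lower (-0.92, adjusted p = 1.48e-08), both being Eph receptor kinases. Epha4 was at 674, 583 and 842 in R1 and at 346, 319 and 445 in HN mESCs, without overlap.

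**Figure D5:**
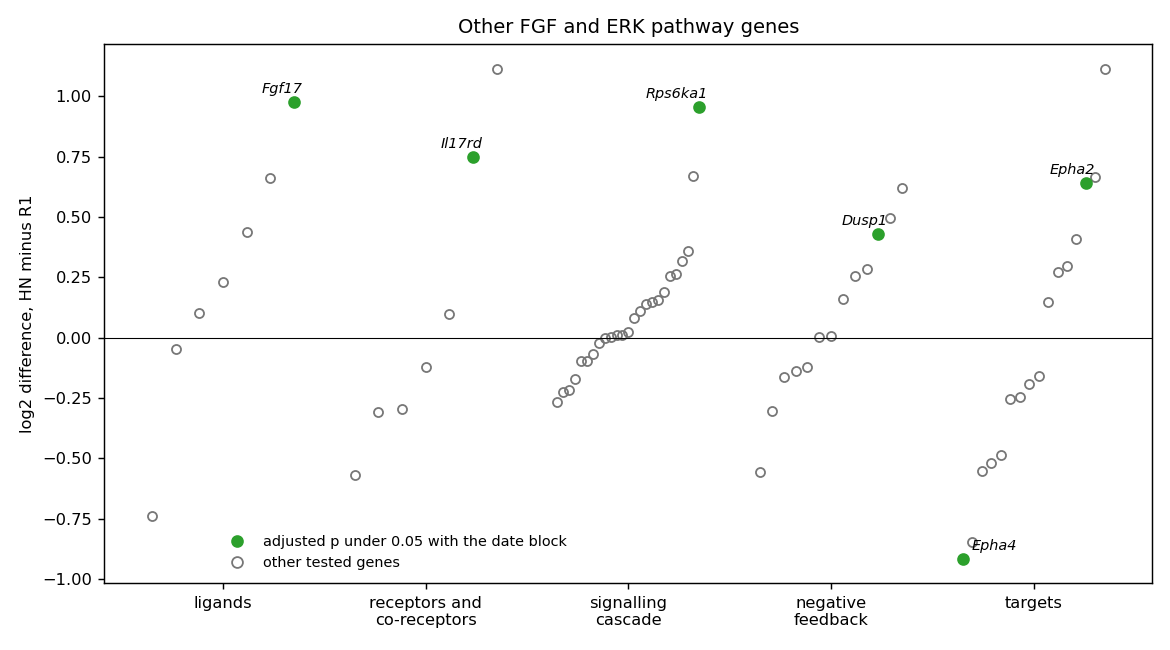
Log2 difference (HN minus R1) of the 68 other tested genes of the pathway, by list and ordered by size within each list. Filled points are the 6 genes past the blocked limma test, of which Epha4 alone (-0.92) lies below 0.

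Genes with the most similar profile were sought for Dusp6, Spry4 and Egr1 among 7659 genes, by the root mean square of the differences between centred log2 values over the 6 libraries. For Dusp6 these were Rarg (0.20), Pvrl1 (0.21) and Peg10 (0.22), and Rarg stood at 375, 735 and 168 in R1 and at 386, 831 and 186 in HN mESCs. For Spry4 they were Ccdc3 (0.27), Nt5e (0.37) and Exoc3l (0.38), and Ccdc3 stood at 75.6, 175 and 37.7 and at 58.4, 89.3 and 19.5. For the scarce Egr1 the nearest were further away, with Vwa5a at 0.49, Ldhb at 0.56 and Nrxn2 at 0.67.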

How the data were processed

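RNA-seq libraries of undifferentiated R1 and HN mESCs (3 each, TruSeq RNA v2, a kit that does not mark strand) were compared. The authors used STAR for alignment to mm10/GRCm38, Picard against PCR duplicates and HTSeq for exon counts, and deposited a signal per gene, counts divided by DESeq2 size factors (0.742 to 1.41 as recovered). Versions and gene annotation are not given in the sources used here. Columns of samples not used numbered 0. In 27 rows a date stands in place of the symbol.

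Whole reads were recovered from 100% of values within 0.01 reads and served for depth and for edgeR 4.0.16 and DESeq2 1.42.0. The main test was limma 3.58.1 (R 4.3.3, variance trend) on log2(value + 1) for genes with a mean of at least 5, with Benjamini-Hochberg adjustment over 14276 genes. Fold changes of low genes are understated on this scale. With the block, edgeR called 1605 genes, DESeq2 512 and limma 1354. Without it, limma called 35. An exact permutation test of 3 against 3 cannot go below p = 0.1 and was not used.

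Collection dates in the labels pair the replicates of the same number (correlations of same-date deviations 0.25, 0.69 and 0.77). R1 replicate 1 correlated more with HN replicate 2 (0.34) than with HN replicate 1 of its own date (0.25). All other correlations across dates were negative. Deviations were taken from each line's own mean, so negative values across dates follow in part from that centring. Nothing says that batches were independent cultures, so p-values measure only spreads among these batches. Without the block this is the spread within each line, and with the block the spread of the line difference between dates. Counting error alone is what read numbers describe, since reads without molecular identifiers need not be independent molecules.

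The 10 genes and all lists were chosen with earlier results of these data known. Named pathway genes were those past a test and, in each list, the highest and the 2 with the largest absolute log2 difference. One gene that this rule names is not reported here. Genes were located with GENCODE M21. Alternatives were the block, edgeR, DESeq2, other pseudocounts, filters and scalings, no variance trend, and each library or date pair left out. For the line test, the pseudocounts, filters, scalings and no variance trend were run only without the block. The blocked line calls were not refitted with them. The limma fits were also run on simulated counts in which the date effect was the same in both lines. Such counts cannot test the blocked calls where the line difference varies between dates, and no conclusion is drawn from them.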

Additional observations from a re-analysis of the deposited data

How the results depend on the processing

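With the replicate block limma called 5 of the 10 genes against 0 without, edgeR with the block 6 and DESeq2 with the block 2, and leaving out each date pair gave 4 each time, while every fit without 1 library called 0. For the other pathway genes the counts were 6 with the block against 0 without, 7 with edgeR and the block, 2 with DESeq2 and 4 with DESeq2 and the block, and from 5 to 9 without each pair. Shares of all tested genes in the fits without a library or a date pair are not given here. The date effect was called in 0 of the 10 genes when the variance trend was dropped, and prior degrees of freedom were then 2.25 in place of 32.0. How many of all tested genes were called without the trend is not given here. The cause of these changes in the calls was not tested.

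Of the log2 differences, that of Fgfr2 changed sign with edgeR (-0.24), edgeR and the block (-0.13), DESeq2 (-0.27) and a pseudocount of 10 (-0.0364). That of Dusp6 did with edgeR (-0.0904), edgeR and the block (-0.0427), DESeq2 (-0.0835), and DESeq2 and the block (-0.0121), and also with the block without replicate 1 (-0.129) or without replicate 3 (-0.0182) and in 4 of the 6 fits without 1 library.
Without 1 library or 1 date pair, Fgfr1 ranged from -0.39 to 0.0884, Fgfr2 ranged from -0.64 to 0.937, Dusp6 ranged from -0.49 to 0.562 and Egr1 from -1.53 to 0.11. Without the block and 1 library, Spry4 ranged from -1.53 to -0.0900, Etv4 from -0.95 to -0.0388, Etv5 from 0.13 to 0.55, Spred1 from -0.64 to -0.13, Fgf4 from 0.43 to 0.92 and Spry2 from 0.68 to 1.08, each with its sign kept.
The median of all genes was -0.0104 as deposited, 0.00372 with median centring and -0.00537 with quantile normalization. With 2 residual degrees of freedom, the blocked test leans on the variance shared across genes. Fgfr2 and Egr1, with at most 20 reads in a library, had the widest intervals.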

Other observations

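Of the 8 pluripotency markers, 0 passed limma without the block (0.245% of all tested genes did). Unadjusted p was under 0.05 for 3 (5.91% of all tested genes), and 5 passed with the block (9.48%). Tfcp2l1, a factor of the naive pluripotency network, was at 3744, 3623 and 3091 in R1 and at 6216, 5235 and 4162 in HN mESCs (log2 difference 0.56, blocked adjusted p = 1.64e-05). Klf4 stood at 339.6, 241 and 245 in R1 and at 439, 374 and 366 in HN mESCs (0.52, adjusted p = 8.96e-04), without overlap. Esrrb (0.37) and Nanog (0.28) also passed in this direction. Zfp42, a naive marker also named Rex1, was lower in HN mESCs at 1061, 1295 and 1272 against 2009, 2381 and 1886 (-0.79, adjusted p = 6.37e-08). Pou5f1 was at 3460, 3405 and 2035 in R1 and at 3347, 3597 and 1994 in HN mESCs, lowest in replicate 3 of both lines.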
